A study of Mus musculus with 16 samples.

Results

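Methylation was examined in the sequence that lies just past the 3′ end of genes expressed in growing mouse oocytes. A gene was a member when it lay on chromosomes 1 to 19, when its mean over both RNA-seq libraries of 60–65 µm oocytes was at least 2 RPKM (reads scaled by the length of the transcript and the depth of the library), and when no other gene of the deposited table began or lay within 20 kb past its end, read on its own strand. The rule gave 1883 genes of 24483 on these chromosomes and of 25965 in the whole table. By comparison, 6504 genes passed the expression threshold alone and 8680 passed the isolation threshold alone. The region of each member was the 20 kb past the annotated end, cut into 20 bins of 1 kb.

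All oocytes came from pre-pubertal wild-type C57BL/6 mice, older animals being used for larger oocytes. Each library was a pool of oocytes, picked by diameter except for the fully grown GV oocytes, for which no diameter is given. Methylation at 60–65 µm was read genome wide in 1 PBAT library (post-bisulphite adapter tagging, in which adapters are added after bisulphite treatment), so values from it carry no replicate error. RRBS (reduced representation bisulphite sequencing, which reads CpG-rich fragments released by the enzyme MspI) covered 3 classes, oocytes 40–45 µm, 50–55 µm or 60–65 µm across, with libraries A and B in each class. RNA-seq covered the same classes and oocytes of 10–30 µm, also in duplicate, with 1 column for fully grown GV oocytes. The PBAT library held 94501474 calls at 28327238 CpG cytosines of the autosomes, with a median of 2 calls per cytosine, so all PBAT values below are pooled over many cytosines. The RRBS libraries held 29275627 to 55938194 autosomal calls. Over the RNA-seq libraries, 8 oocyte markers (among them Zp3, Gdf9, Ddx4 and Dazl) summed to between 1464 and 1829 RPKM, and 2 blood markers to at most 0.0846 RPKM. The sum over 8 granulosa cell markers was low but higher in larger oocytes: 0.803 and 0.772 RPKM at 10–30 µm, 1.03 and 0.855 at 40–45 µm, 2.08 and 1.66 at 50–55 µm, 2.98 and 2.55 at 60–65 µm and 4.09 in GV oocytes. Of the 8, Cyp19a1 rose most, from 0.161 and 0.159 RPKM at 10–30 µm to 1.25 and 1.04 at 60–65 µm and 2.53 in GV oocytes. Kitl and Fshr were also higher in larger oocytes. Foxl2, which defines these cells, and Wt1 were at most 0.0642 RPKM. These are other libraries than those read for methylation, and the part of such cells in the trends with size was not tested. One RRBS library, 50–55 µm B, stood apart from its duplicate in sequence past expressed and silent genes alike, and each trend test and tile count below that uses it is also given without it where that changes the call or the p.

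In the mouse female germline, methylation is laid down on a nearly unmethylated genome as the oocyte grows. It is placed mostly over the bodies of transcribed genes, where the passage of RNA polymerase II brings a histone mark, H3K36me3, that recruits the DNMT3A–DNMT3L methyltransferase. RNA polymerase does not stop at the annotated end of a gene: the transcript is cut after a signal, most often AATAAA, and the polymerase goes on for a distance before it leaves the template. How far methylation continued past the annotated end is therefore the quantity described here.

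The sequences below show, for genes taken from the top of 3 lists described later, the 150 bases within 5 kb past the end that held the most CpG cytosines with at least 5 PBAT calls. They are GRCm38 sequence from RefSeq, written 5′ to 3′ on the strand of the gene, with CpG dinucleotides in capitals. Lcor and Enox1 stayed methylated over the whole region. Qdpr and Spata5 were among the 8 genes with the largest fall at the gene end, and Mex3c, whose fall lay between theirs, is not shown. Uchl1 and Obox2 had the most RNA among members of at least 10 kb with a measured body and a measured run.
Lcor: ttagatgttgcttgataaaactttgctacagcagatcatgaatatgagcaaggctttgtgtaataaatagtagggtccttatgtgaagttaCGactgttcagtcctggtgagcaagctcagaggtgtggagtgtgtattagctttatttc
Enox1: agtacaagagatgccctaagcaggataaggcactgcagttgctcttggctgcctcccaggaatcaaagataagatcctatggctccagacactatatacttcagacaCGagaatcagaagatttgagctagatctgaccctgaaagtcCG
Qdpr: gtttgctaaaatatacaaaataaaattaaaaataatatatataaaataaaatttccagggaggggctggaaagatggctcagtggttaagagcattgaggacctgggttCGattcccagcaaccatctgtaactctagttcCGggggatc
Spata5: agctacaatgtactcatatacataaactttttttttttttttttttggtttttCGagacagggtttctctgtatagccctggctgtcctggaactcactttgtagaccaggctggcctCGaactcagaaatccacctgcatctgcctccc
Uchl1: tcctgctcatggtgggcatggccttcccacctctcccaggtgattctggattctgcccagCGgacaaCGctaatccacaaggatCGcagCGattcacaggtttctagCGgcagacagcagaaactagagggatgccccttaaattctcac
Obox2: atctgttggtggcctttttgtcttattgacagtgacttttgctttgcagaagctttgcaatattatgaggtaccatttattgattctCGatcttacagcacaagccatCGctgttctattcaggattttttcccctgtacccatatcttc

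The Lcor stretch was chr19:41563096-41563245, starting 850 bases past the end, and 8 of 10 calls at its 2 cytosines were methylated (80.0%, 95% Wilson interval 49.0 to 94.3). The last base of this stretch is the cytosine of a CpG whose guanine lies outside it, as is also the case for Qdpr, Spata5, Uchl1 and Obox2. The Enox1 stretch was chr14:77726251-77726400, with 11 of 12 calls methylated (91.7%, 64.6 to 98.5). The Qdpr stretch, on the minus strand, was chr5:45432978-45433127, and 2 of 15 calls were methylated (13.3%, 3.74 to 37.9). The Spata5 stretch was chr3:37583073-37583222, with 2 of 18 calls methylated (11.1%, 3.10 to 32.8). Both pairs were chosen by these same PBAT calls, so the values illustrate the lists and test nothing. The Uchl1 stretch, chr5:66690511-66690660, held 9 measured cytosines, of which 5 had no methylated call, and 6 of its 59 calls were methylated (10.2%, 4.74 to 20.5). The Obox2 stretch was chr7:15402306-15402455, where 36 of 63 calls were methylated (57.1%, 44.9 to 68.6). These intervals cover counting error only.

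The last 30 bases of the same genes are given with AATAAA in capitals where it occurs, since they mark the end from which all distances are counted.
Lcor: gtggccccttttaaaattcatgagcctctc
Enox1: aatttttttcAATAAAtcttgacttctacc
Qdpr: ttcatgtcttgtgttgtctttttcactcaa
Spata5: agtatAATAAAcatttctctgggcagttca
Uchl1: aggaagAATAAAactttgctggtgagagta
Obox2: aAATAAAaggagaaaatagtacttttaaaa

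AATAAA was present on the gene strand in the last 40 bases of 1112 of 1883 members (59.1%) and of 12175 of all 24483 listed autosomal genes (49.7%). The other strand was not searched. Lcor and Qdpr, from different lists, both lacked these letters in the 30 bases shown. Among members of at least 10 kb, the first kb past the end was methylated at 32.8% in the 895 genes with AATAAA and at 34.2% in the 567 without.

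Methylation fell mostly within the first 3 kb past the gene end. In the 1462 members of at least 10 kb, pooled PBAT methylation was 48.5% over the last 5 kb of the gene body (SD over 19 autosomes 3.71) and 33.3% in the first kb past the end (SD 4.10). It was 24.4% in the second kb, 20.9% in the third, 18.4% in the fourth and 17.9% in the fifth. Over the 15 bins beyond it stayed between 13.8% and 18.4%, and from 15 to 20 kb it was 15.01% (SD 2.58). The fall began before the annotated end, since the last kb of the body was at 42.9% and the fifth kb before the end at 52.0%. In steps of 200 bases, methylation was 44.5% between 1000 and 800 bases before the end and 38.7% in the last 200 bases. It was 36.2% in the first 200 bases past the end, 28.3% between 800 and 1000 bases past it and 23.6% between 2000 and 2200 bases past it. The pooled profile thus had no single step at the annotated end. Being an average over genes, it cannot show whether single genes had one. The 421 members shorter than 10 kb had 26.8% in the first kb and 17.1% at 15 to 20 kb.

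**Figure D1:**
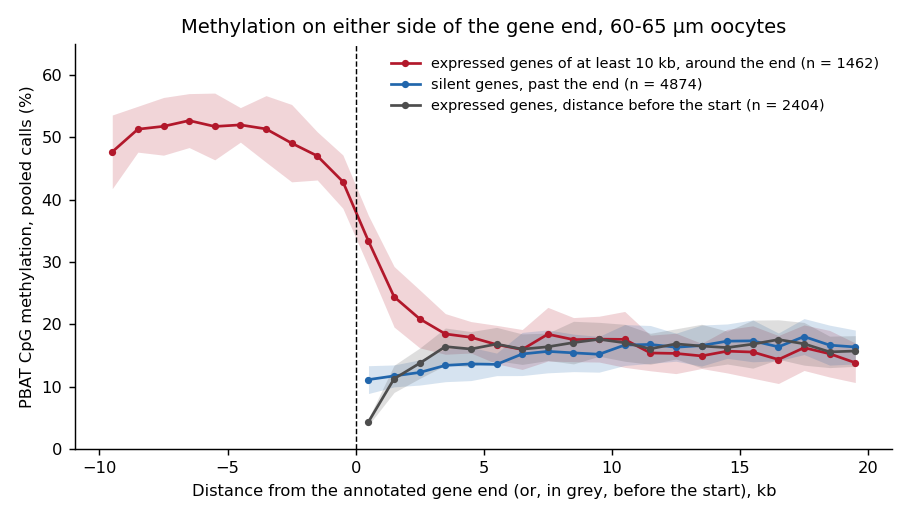
Pooled PBAT methylation (%, vertical axis) in 1-kb bins against distance from the gene end in kb, with negative values inside the gene. Red shows expressed members of at least 10 kb and blue shows silent genes of any length past their end. Grey shows expressed genes of any length at the same distances before their start. Shading is ± 1 SD over 19 autosomes. Red falls from 42.9% in the last kb of the body to 33.3% in the first kb past the end and to 17.9% in the fifth, where the blue line is at 13.6% and the grey line at 16.02%.

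Silent genes lacked the raised stretch. The 4874 genes under 0.1 RPKM in both 60–65 µm libraries that met the same isolation rule were at 11.1% in the first kb past the end (SD over autosomes 2.23), 12.8% from 1 to 5 kb and 16.9% from 15 to 20 kb. All 1883 members were at 32.0% (SD 3.79), 19.9% and 15.47% in the same bands. In the first kb the lowest autosome of the members, 23.9%, was above the highest autosome of the silent genes, 16.4%. From 15 to 20 kb the ranges over autosomes overlapped, 12.2 to 20.2% for members against 12.9 to 20.8% for silent genes. The 1923 isolated genes between 0.1 and 2 RPKM were at 26.0% in the first kb. Silent genes were shorter (median 8.08 kb against 30.7 kb in members) and had fewer CpGs over the 0–5 kb (median 6.8 against 9.2 per kb). The 2247 silent genes of at least 10 kb were also low in the last 5 kb of the body, at 10.4%. They were at 11.1% in the first kb past the end and 16.1% from 15 to 20 kb. The PBAT library is single and the members were chosen to show this profile, so these values are a description with no test.

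The raised stretch lay on 1 side of the genes. Sequence before the start of 2404 expressed genes with no listed gene in the 20 kb before them was at 4.33% in the first kb, 14.2% from 1 to 5 kb and 16.5% from 15 to 20 kb. In the 1027 members free on both sides, the first kb past the end was at 30.8% and the first kb before the start at 4.40%. At 15 to 20 kb the sides were at 15.4% and 17.8%. CpG islands, which are dense in CpG and mostly unmethylated, sit at many gene starts, and in these 1027 genes 261191 calls fell in the first kb before the start against 44105 in the first kb past the end. The part of CpG islands in the difference was not tested.

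The level past the end followed the level of the gene body. Of the 1355 members of at least 10 kb with at least 50 calls in the last 5 kb of the body, 1167 were at 25% or more there and 188 were below. The first kb past the end was at 57.5% in the 70 genes whose body was at 75 to 100%, at 40.5% in the 685 at 50 to 75%, at 26.4% in the 412 at 25 to 50% and at 15.8% in the 188 below 25%. By 15 to 20 kb the same groups were at 22.5%, 13.8%, 14.9% and 15.9%, and the first of these, with 70 genes, had an SD over autosomes of 17.9. Over 1293 genes with at least 50 calls on both sides, the body and the 0–5 kb past the end had a Spearman correlation of 0.36 and a Pearson correlation of 0.33 across genes, which share 1 library and are not independent replicates. The level was lower past the end than in the body in 1130 of these 1293 genes, by more than 10 percentage points in 962 and by more than 20 in 787. It was higher past the end by more than 10 points in 74 genes.

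**Figure D2:**
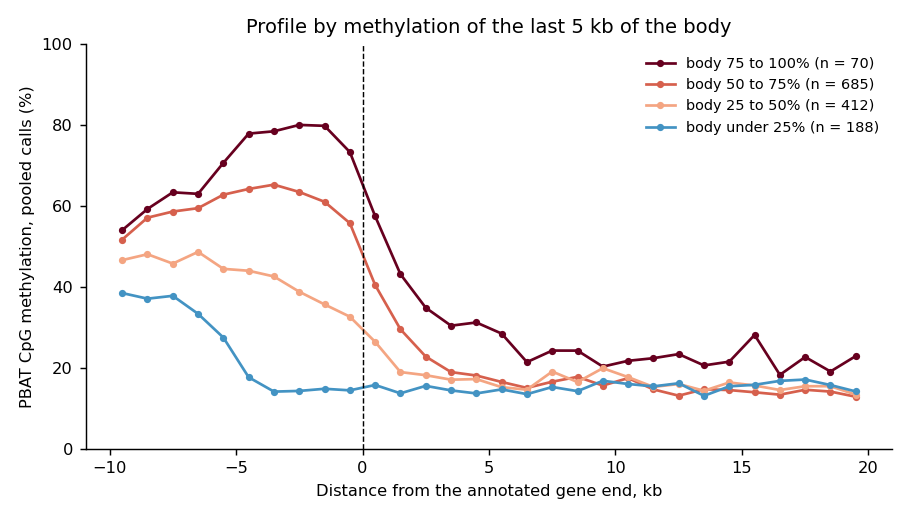
Pooled PBAT methylation (%) in 1-kb bins against distance from the gene end (kb) for members of at least 10 kb grouped by methylation of the last 5 kb of the body. In the first kb past the end the 4 lines stand at 57.5%, 40.5%, 26.4% and 15.8%.

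Grouped by transcript level, the first kb differed little up to 20 RPKM and was lower above it. The first kb past the end was at 34.3% in 650 members of at least 10 kb with 2 to 5 RPKM, at 35.1% in 390 with 5 to 10 RPKM and at 33.6% in 274 with 10 to 20 RPKM. It was at 24.5% in 112 genes with 20 to 50 RPKM (SD over autosomes 10.5) and at 20.9% in 36 genes with 50 RPKM or more (SD 9.03), whose bodies were also lower, at 45.2% and 33.5% against 49.9% at 2 to 5 RPKM. The same 36 genes were at 27.9% from 5 to 10 kb (SD over autosomes 18.7) and 21.8% from 15 to 20 kb (SD 12.7), against 15.7% and 14.9% at 2 to 5 RPKM, and 4 of the 15 with a methylated body and a measured run (26.7%) had a run of 5 kb or more. Across the 1293 genes the Spearman correlation of log RPKM with the 0–5 kb past the end was -0.06, and with the body -0.14. At the threshold itself, the members just inside 2 RPKM were Nek7, Ythdc1, Cwc27, 1810013D10Rik and Abcc1, which ran from 6.61% to 62.7% over the 0–5 kb past the end. The genes just outside were Tmem135, Gm14440, Ostm1, Rtn4r and Vamp4. Gm14440 had no call there, and the others ran from 8.42% to 59.5%.

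Each member's run past the end was measured where at least 15 of its 20 bins held at least 10 calls. The run was the distance to the first of 2 successive measured bins under 25%, passing over bins that were not measured, or to the last measured bin where that one alone was under 25%. A run could thus take in single bins under 25% and bins that were not measured, also in the first kb. Slc45a3, for example, had a run of 11 kb with its first kb at 17.2% (64 calls). The run could be measured in 1429 members and not in 454. In the 953 measured genes of at least 10 kb with a body at 25% or more, the median run was 1 kb (interquartile range 0 to 3). The run was 0 in 316 of them (33.2%), 1 to 4 kb in 455, 5 kb or more in 182 (19.1%) and 10 kb or more in 71 (7.45%). In 23 genes (2.41%) it took in all 20 kb. With a threshold of 40% the share of 5 kb or more was 10.9%. The share taking in all 20 kb was 1.26% with that threshold, 1.47% when 1 low bin ended the run and 1.20% with at least 20 calls per bin. In the 157 measured genes whose body was below 25%, the run was 0 in 104 (66.2%) and 5 kb or more in 11 (7.01%). A low stretch close to the end did not always hold further out: of 813 genes with a methylated body, a run of at most 5 kb and at least 50 calls at 15 to 20 kb, 87 (10.7%) were again at 25% or more at 15 to 20 kb, and 513 (63.1%) were under 10% there.

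**Figure D3:**
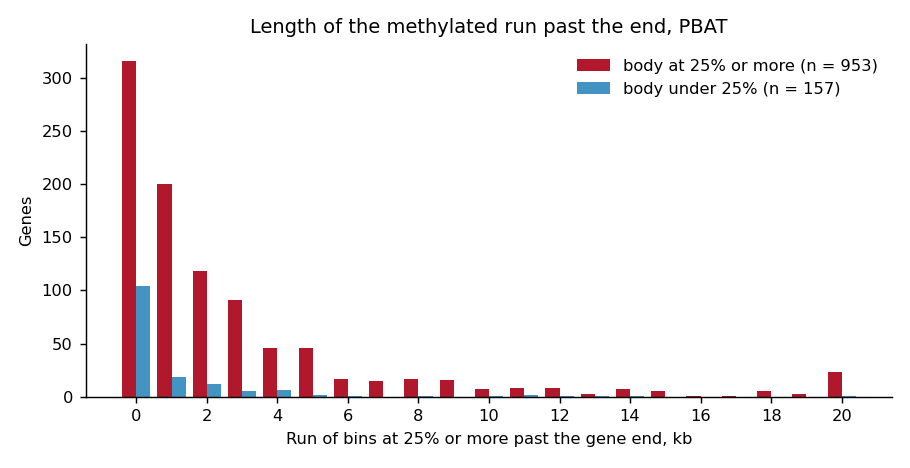
Number of genes (vertical axis) by length of the run past the gene end (kb), as defined in the text. A run can take in single bins under 25% and bins that were not measured. Red, 953 genes with a body at 25% or more; blue, 157 with a body under 25%. The red bars are highest at 0 kb (316 genes) and rise again at 20 kb (23 genes), where the run reaches the limit of the region.

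The values were also set beside another annotation. A later gene set, GENCODE M21 on the same build, was matched for 1692 of the 1883 members by symbol, strand and overlap. It placed the gene end within 100 bases of the deposited one in 1351 members and at least 1 kb further out in 210. In the 174 of these 210 that were at least 10 kb long, the first kb was at 42.1% (SD over autosomes 10.4) and 1 to 5 kb at 28.3%. In the 1071 genes of that length whose ends matched within 100 bases, the values were 31.9% (SD 4.27) and 19.3%. The last 5 kb of the body was also higher in the first set, at 52.2% against 48.5%. Among genes with a methylated body and a measured run, 33 of 111 (29.7%) with an extended end had a run of 5 kb or more, against 92 of 505 (18.2%) with a matching end and no other GENCODE gene in the 20 kb. The 762 genes of at least 10 kb with a matching end and no other GENCODE gene went from 49.7% in the last 5 kb of the body to 32.5% in the first kb past the end and 15.1% at 15 to 20 kb. GENCODE listed some other gene in the 20 kb of 625 members, and no gene at all there, the member included, in 869. The 20-kb regions of 74 members overlapped that of another member, so these are not independent.

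Values in the first kb were close whatever the neighbouring gene. The next listed gene lay at a median of 53.1 kb. Where it lay within 50 kb on the same strand, the first kb was at 33.5% if that neighbour was expressed (164 genes) and at 32.8% if it was under 2 RPKM (277 genes). Where it faced the member, the values were 33.1% (71 genes) and 32.6% (189 genes). At 15 to 20 kb the values were 17.2% and 12.4% for neighbours on the same strand, with SDs over autosomes of 7.91 and 4.30, and 19.4% and 14.5% for facing neighbours, with SDs of 14.3 and 6.52.

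GC content and CpG density were nearly level across the 20 kb past the end. In members of at least 10 kb, CpG density was 11.5 per kb in the last kb of the body, 10.1 in the first kb past the end and 9.87 in the last bin. GC content was 41.9% in the last kb of the body, 44.1% in the first bin past the end and 44.5% in the last. The share of bases in lower case in the RefSeq assembly, which marks repeats, rose from 22.5% in the first kb to 35.9% in the last. CpG-dense sequence (a cytosine with at least 10 CpGs in the surrounding 200 bases) was below the rest within 5 kb of the end and above it further out. In the first kb past members it was at 17.2% (95% Wilson interval 15.9 to 18.6, in 65 members) against 32.5% for other cytosines. It was at 15.1% against 20.3% from 1 to 5 kb, 23.0% against 16.8% from 5 to 10 kb, 20.96% against 15.2% from 10 to 15 kb, and 21.4% (20.98 to 21.8) against 14.8% from 15 to 20 kb. Past silent genes the CpG-dense sequence was at 7.99% in the first kb and 30.2% at 15 to 20 kb.

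Median CpG density over the 0–5 kb past the end was 10.5 per kb for runs of 0, 10.2 for 1 to 4 kb and 9.20 for 5 kb or more, the last being also the median of all members, and the median body level was 49.0%, 59.3% and 62.2%. The median transcript level was 6.18, 5.77 and 5.77 RPKM. AATAAA stood in the last 40 bases of 221 of 316 genes with a run of 0 (69.9%), 277 of 455 with 1 to 4 kb (60.9%) and 106 of 182 with 5 kb or more (58.2%). These are descriptions of classes cut from the PBAT values.

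The 8 genes with the highest methylation over the whole 20 kb, among those of at least 10 kb with a measured run and body, were Lcor, Enox1, 9130204K15Rik, Slc4a1ap, Fbxw19, Pelp1, Ptdss1 and Inpp5d, at 65.6 to 74.97%. Lcor, which encodes a corepressor of nuclear receptors, lies at chr19:41482645-41562246 on the plus strand. It was at 69.3% in the last 5 kb of the body (64.1 to 74.1, 326 calls), 74.3% from 0 to 5 kb past the end (57.9 to 85.8, 35 calls) and 77.3% from 15 to 20 kb. Its RNA was 3.26 and 3.52 RPKM in the 60–65 µm libraries, close to the threshold. Enox1, an NADH oxidase of the cell surface, was at 48.3% in the body (43.2 to 53.3) and 37.5% in the first kb past the end (24 calls). Over the 20 kb it was at 68.9% (63.9 to 73.4), and its RNA was 12.3 and 13.2 RPKM. Pelp1, a coactivator of nuclear receptors, was at 65.5% in the body and 66.0% past the end. Ptdss1, a phosphatidylserine synthase, was at 65.5% and 66.0%. For these 2 genes the counting intervals of body and downstream sequence overlapped. Inpp5d, a phosphatase of inositol lipids, fell from 72.1% to 61.4% over the 0–5 kb past the end and stood at 80.7% from 15 to 20 kb. Fbxw19, a member of a family of near-identical F-box genes in which reads can be shared, had the most RNA of the 8, at 77.9 and 73.7 RPKM. For Slc4a1ap and Fbxw19, GENCODE ends the gene 2890 and 1916 bases further out. It lists other genes in the 20 kb past both and past Ptdss1, and none past Lcor, Enox1, 9130204K15Rik, Pelp1 and Inpp5d.

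The 8 genes with the largest fall among those with a body of at least 50% were Qdpr, Mex3c, Spata5, Fam60a, Tnfsf11, Lrrc1, Shfm1 and Rpn1, whose 0–5 kb past the end was 65.2 to 71.1 points below the body. Rpn1, a subunit of the oligosaccharyltransferase of the endoplasmic reticulum, was at 71.8% in the last 5 kb of the body (68.7 to 74.8, 824 calls), 0.885% in the first kb past the end and 6.66% from 0 to 5 kb (4.89 to 9.00, 571 calls). Its run was 0. Spata5, an ATPase at chr3:37419896-37579096, went from 75.8% to 7.92% (4.07 to 14.9) and was at 5.78% from 15 to 20 kb. Tnfsf11, the cytokine RANKL, went from 71.3% to 5.15%, and Lrrc1 from 70.4% to 4.47%. Shfm1, a small proteasome subunit, was at 73.0% in the body and 7.30% over the 0–5 kb. The run was 0 in 6 of the 8 genes, all but Shfm1 and Qdpr, and in all but Qdpr and Lrrc1 (25.5% from 10 to 15 kb) no later 5-kb band was above 15.6%. Qdpr, which recycles the cofactor tetrahydrobiopterin, stood apart. From 78.0% in the body it fell to 6.94% from 0 to 5 kb past the end (4.01 to 11.7, 173 calls). It was then at 21.4%, 55.6% and 71.5% in the following 5-kb bands. GENCODE listed 1 other gene, a long non-coding RNA, in its 20 kb. Other genes were also listed past Mex3c, Fam60a and Shfm1, which had no such rise. The part of these genes was not tested. RNA of Rpn1 was 6.01 and 6.65 RPKM at 60–65 µm, and the mean for Qdpr was lower, near the threshold.

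**Figure D4:**
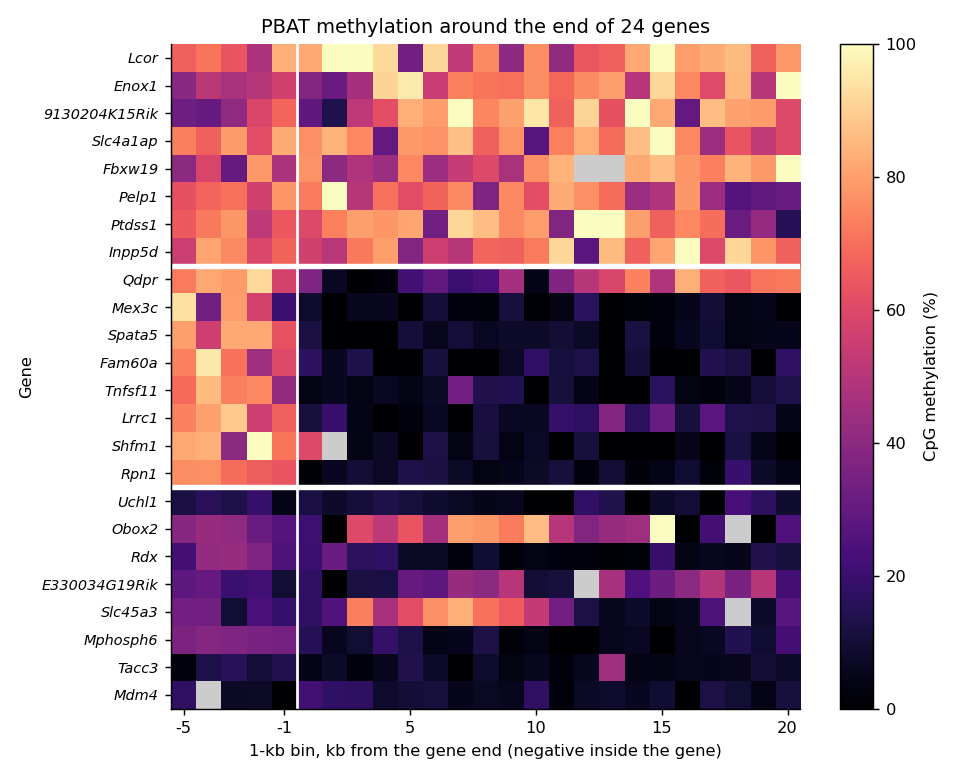
PBAT methylation (colour, 0 to 100%) in 1-kb bins from 5 kb before to 20 kb past the gene end for 24 genes in 3 blocks: the 8 most methylated over the 20 kb, the 8 with the largest fall, and the 8 with the most RNA among measured members. Grey bins had no call; bins with few calls are shown as they are. The vertical white line marks the gene end, and Qdpr is the row of the middle block that turns light again at 15 to 20 kb (71.5%).

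Among members of at least 10 kb with at least 50 calls in the body and a measured run, the 8 with the most RNA were Uchl1, Obox2, Rdx, E330034G19Rik, Slc45a3, Mphosph6, Tacc3 and Mdm4. Uchl1, a deubiquitinase abundant in oocytes, was at 350 and 369 RPKM. Both its body, 11.9% (9.37 to 14.98), and its 0–5 kb past the end, 11.3% (8.53 to 14.8), were low. Tacc3, a spindle protein, was likewise low on both sides, at 8.72% and 6.55%. Mdm4, an inhibitor of p53, was at 13.9% and 14.1%, but GENCODE ends it 30361 bases further out, so that its whole 20 kb lies inside the gene in that annotation. Rdx, which links the membrane to actin, and Mphosph6, a cofactor of the RNA exosome, fell from 38.1% to 13.2% and from 36.6% to 13.0%. Over the 0–5 kb, Obox2 and Slc45a3 were instead above the body, although their first kb was below it, at 21.1% (19 calls) and 17.2% (64 calls). Obox2, a homeobox gene of the oocyte with near-identical neighbours that could share reads, rose from 33.9% in the body (28.0 to 40.4) to 52.5% from 0 to 5 kb (45.2 to 59.7) and 70.2% from 5 to 10 kb, with a run of 15 kb. Slc45a3, a membrane transporter, rose from 30.4% (26.7 to 34.3) to 48.4% (42.3 to 54.6) and 67.6%, and then fell to 12.1% from 10 to 15 kb. Its RNA was 65.4 and 76.4 RPKM at 10–30 µm and 164 and 166 at 60–65 µm. GENCODE listed 2 other genes in the 20 kb past Obox2 and 1 past Slc45a3. It also listed 1 each past Uchl1, Rdx and Tacc3, which had no such rise, and the part of these genes was not tested.

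Of a list of 40 oocyte genes, 11 were members. In 5 of the 6 longer than 10 kb with at least 50 calls on both sides, the level past the end was below that of the body by 29.8 to 56.8 points. Lhx8, a homeobox factor of the early oocyte, went from 67.9% in the body to 20.7% over the 0–5 kb past the end, and Taf4b, a subunit of the basal transcription machinery, from 81.8% (77 calls) to a level 56.8 points lower (84 calls). Kit, the receptor for the growth signal from granulosa cells, went from 58.5% to 13.4%. Cd9, a membrane protein needed for sperm fusion, went from 39.0% to 5.10%, and Dnmt3a, which encodes the methyltransferase itself, from 40.2% to 10.5%. Their RNA at 60–65 µm spanned 3.48 RPKM (Dnmt3a, library B) to 27.7 RPKM (Kit, both libraries). Dazl, a translational regulator, was at 37.5% in the body, on only 8 calls, and at 7.23% past the end. Dppa3 and Btg4, both shorter than 5 kb, were at 12.9% and 12.7% past the end with RNA of 213 and 248 RPKM and of 197 and 200 RPKM. Figla, a transcription factor of the zona pellucida genes, was at 31.9% from 0 to 5 kb and 14.4% from 15 to 20 kb. Methylation instead rose outward past Mos, the kinase that holds the egg in meiosis, from 40.4% over the 0–5 kb (156 calls) to 72.6% from 15 to 20 kb (113 calls). Past Nlrp5, a component of the subcortical maternal complex, it was 56.9% over the 0–5 kb (50.0 to 63.5), above the 15.49% of the body (8.88 to 25.7). GENCODE listed other genes in the 20 kb past Mos and Nlrp5, and also past Figla, Btg4 and Dnmt3a.

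RRBS gave replicated values that the choice of members had not used, on cytosines with at least 5 calls in all 6 libraries. Methylation just past the end rose with oocyte size. Over 200 cytosines in the first kb past members, the mean was 2.57% and 2.20% in libraries A and B of 40–45 µm, 8.75% and 13.2% at 50–55 µm, and 18.4% and 20.6% at 60–65 µm. The classes did not overlap. Over 1332 cytosines in the last 5 kb of the body of members of at least 10 kb it was 3.01% and 2.02%, 17.4% and 20.3%, and 37.3% and 38.1%. Over 897 cytosines from 1 to 5 kb past the end it was 3.61% and 3.50%, 4.92% and 6.48%, and 8.29% and 8.41%. In the members of at least 10 kb alone, the 0–5 kb past the end (815 cytosines) was at 4.08% ± 0.0903, 8.22% ± 1.75 and 12.9% ± 0.459 (SD, n = 2 per class).

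The trend was tested over 5 bands by the number of library pairs in order of size, out of 12, with an exact permutation test (one-sided, 90 arrangements, smallest possible p 0.0111) and Benjamini-Hochberg adjustment. The body (members of at least 10 kb), the 0–5 kb band (all members, 3.34% ± 0.113, 6.66% ± 1.48 and 10.4% ± 0.349, SD, n = 2 per class) and the 5–10 kb band (5.10% ± 0.177, 6.72% ± 0.775 and 7.93% ± 0.310) had all 12 pairs in order, each with an exact adjusted p of 0.0185. The bands at 10–15 kb (5.31% ± 0.456, 7.61% ± 2.33 and 8.04% ± 0.0803) and 15–20 kb (4.23% ± 0.162, 5.88% ± 1.61 and 6.70% ± 0.0603) had 10 of 12 pairs in order, with an exact adjusted p of 0.0889. All autosomal RRBS calls, pooled in each library over a wider set of cytosines, also rose. They were at 3.17% and 2.88% at 40–45 µm, 6.47% and 6.56% at 50–55 µm, and 7.85% and 8.75% at 60–65 µm. The rises at 5–10, 10–15 and 15–20 kb (2.83, 2.73 and 2.47 points) were smaller than that general rise. Without the 50–55 µm B library all 5 bands were in order with an exact adjusted p of 0.0333. When another library was left out instead, the adjusted p of the first 3 bands was 0.0556, with their pairs still in order. With every cytosine of at least 5 calls in a library taken, the exact adjusted p was 0.0556 in the body and 0.0889 at 0–5 and 5–10 kb, where 10 of 12 pairs were in order, and with pooled calls it was 0.0889 at 5–10 kb.

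**Figure D5:**
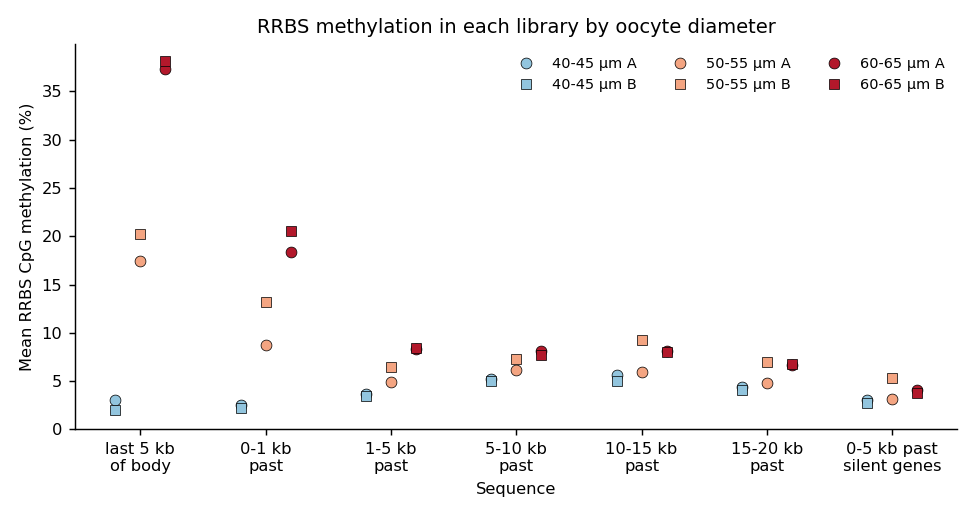
Mean RRBS methylation (%) in each library for the gene body (members of at least 10 kb), 5 bands past the end of members, and the 0–5 kb past silent genes. Circles, library A; squares, library B; colours, oocyte diameter; no error bars, each point being 1 library. The 60–65 µm points stand at 37.3% and 38.1% in the body, 18.4% and 20.6% in the first kb and under 10% further out.

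The rise past expressed genes was larger than past silent ones. Over 2297 cytosines in the 0–5 kb past silent genes, methylation was 3.08% and 2.75% at 40–45 µm, 3.15% and 5.29% at 50–55 µm and 4.07% and 3.77% at 60–65 µm. The difference between members and silent genes was 0.424 ± 0.121 points at 40–45 µm, 2.45 ± 0.0390 at 50–55 µm and 6.46 ± 0.561 at 60–65 µm (SD, n = 2), with 12 of 12 pairs in order (exact permutation test, p = 0.0111). The raised level of the 50–55 µm B library was in both sets and this difference was 2.42 points in B and 2.47 in A. The difference between the body and the 0–5 kb past the end of members of at least 10 kb went from -1.57 ± 0.606 points at 40–45 µm to 10.6 ± 0.264 at 50–55 µm and 24.8 ± 0.105 at 60–65 µm, again with 12 of 12 pairs in order (exact permutation test, p = 0.0111). Without the 50–55 µm B library both differences kept all 8 pairs in order, with an exact permutation p of 0.0333, the smallest that 5 libraries allow. The body was thus slightly below the downstream sequence in the smallest oocytes and well above it in the largest.

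The runs measured by PBAT were also seen in the RRBS libraries. Past the 182 genes with a run of 5 kb or more, the 0–5 kb band (69 cytosines of 27 genes) was at 3.47% and 2.95% at 40–45 µm, 18.5% and 22.9% at 50–55 µm and 41.4% and 46.4% at 60–65 µm. Past the 455 genes with a run of 1 to 4 kb (254 cytosines of 89 genes) it was 3.81% and 4.16%, 7.55% and 9.36%, and 15.2% and 15.49%. Past the 316 genes with a run of 0 (264 cytosines of 78 genes) it was 1.67% and 1.15%, 1.72% and 3.86%, and 2.84% and 3.13%. The last 5 kb of the body of the same genes reached 50.5% and 51.7%, 48.0% and 50.6%, and 38.2% and 37.9% at 60–65 µm. The order of the 3 classes in this 0–5 kb band was thus the same in each of the 4 libraries of 50–55 and 60–65 µm, with levels at 60–65 µm apart by more than the difference between duplicates. No test was run on this order. From 5 to 20 kb the classes were not in this order: at 60–65 µm the longest was at 11.9% and 12.7%, genes with a run of 1 to 4 kb at 6.09% and 5.93%, and genes with a run of 0 at 6.56% and 6.23%. In the 8 genes with the largest fall, RRBS at 60–65 µm read 79.6% and 79.3% in the body (11 cytosines of 3 genes) and 2.03% and 0.456% over the 0–5 kb past the end (13 cytosines of 3 genes).

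Methylation was also compared in 1-kb tiles with the edgeR quasi-likelihood test on methylated and unmethylated calls, over 23094 tiles of the autosomes with a mean of 5 to 95% and at least 20 calls in each library. In members' regions, 1369 tiles held enough calls, with at least 1 call of each kind, and 368 of these, in 301 genes, passed the limits on mean methylation. A tile near 0 in small oocytes passes the lower limit mainly by being high in larger ones, so the shares called among the 368 are raised by that choice. From 40–45 to 60–65 µm, 153 of the 368 member tiles (41.6%) gained and 0 lost methylation at an adjusted p under 0.05, against 62.2% of all tiles that gained and 0.039% that lost. The share of member tiles was therefore below that of all tiles, which include gene bodies. By distance, 31 of 41 tiles in the first kb gained (75.6%), 45 of 83 from 1 to 5 kb (54.2%), 34 of 78 from 5 to 10 kb (43.6%), 22 of 87 from 10 to 15 kb (25.3%) and 21 of 79 from 15 to 20 kb (26.6%). With no limits on mean methylation, 17 of 77 tiles gained in the first kb (22.1%), 33 of 257 from 1 to 5 kb (12.8%), 21 of 356 from 5 to 10 kb (5.90%), 13 of 346 from 10 to 15 kb (3.76%) and 17 of 333 from 15 to 20 kb (5.11%). That was 101 of 1369 member tiles (7.38%) against 10721 of all 75233 (14.3%). The 153 tiles lay in 128 genes and gained a median of 31.2 points, while the median difference over all 368 member tiles tested was 10.3 points. From 40–45 to 50–55 µm, 86 member tiles gained (23.4%) and 0 lost methylation, against 41.3% of all tiles that gained and 0.0217% that lost. From 50–55 to 60–65 µm edgeR called 0 member tiles and 0 of all tiles (0% of all), and limma called 0 member tiles too, while 55 member tiles and 5988 of all were higher at an unadjusted p under 0.05 in edgeR. The 153 member tiles fell to 88 without the 60–65 µm A library and to 79 without the 60–65 µm B library. The 86 member tiles fell to 35 without either 60–65 µm library, to 47 without the 50–55 µm B library and to 0 with no limits on mean methylation (0 of all tiles too), and the 0 member tiles became 27 and 23 without the 40–45 µm A and B libraries.

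The 5 member genes with the smallest p from 40–45 to 60–65 µm were Slc45a3, 9130204K15Rik, Rbm33, Mipep and 2010107G23Rik. Past Slc45a3 the tile chr1:131987001-131988000, centred 4.54 kb past the end, was at 1.18% and 1.31% at 40–45 µm, 32.1% and 36.7% at 50–55 µm, and 65.0% and 68.5% at 60–65 µm. Past 9130204K15Rik, an uncharacterised gene, the tile chr11:79773001-79774000, centred 8.48 kb past the end, went from 1.82% and 1.71% through 37.9% and 36.9% to 79.3% and 81.7%. These tiles belong to genes whose PBAT runs were 11 and 20 kb. The tile past Rbm33, chr5:28419001-28420000, was centred 0.256 kb past the end, so that part of it lies in the gene, and rose from 3.70% and 2.41% to 70.9% and 74.5%. The tile 1.89 kb past Mipep, a mitochondrial peptidase, chr14:60905001-60906000, rose from 2.25% and 2.67% to 53.7% and 53.3%. The tile 9.16 kb past 2010107G23Rik, chr10:62098001-62099000, rose from 0.493% and 0.778% to 45.2% and 46.4%, although the PBAT run of this gene was 0 and its body was at 13.0%. These tiles were picked by the p of this same comparison, the edgeR adjusted p being 0.000427 in each, and they passed the lower limit on mean methylation through the larger oocytes, so their values show the size of the change and are no further support for it.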

How the data were processed

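Per the labels and the study's methods, reads were trimmed with Trim Galore 0.3.5 (RNA-seq: 0.2.8). RRBS reads were aligned with Bismark 0.14.0 and PBAT reads with Bismark 0.10.0, followed by removal of duplicates, and RNA-seq reads with TopHat2 2.0.9, all on GRCm38. The authors deposited, for each CpG cytosine, the percent methylated and the counts of methylated and unmethylated calls, and a table of genes in RPKM, which was not scaled further here. Which program made the RPKM table is not given in the sources used here. Percentages were recomputed from the counts, and all 28327238 PBAT positions lay on a CpG of GRCm38. The members and lists were chosen with earlier results of these data known.

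Calls were pooled over cytosines by distance from the gene end. Intervals are 95% Wilson intervals, and SDs over autosomes describe spread along the genome, not replicate error. Nothing says that libraries A and B came from separate animals, so p-values measure only the spread between these samples. The letters A and B did not pair the libraries (correlation of deviations between -0.02 and -0.01 over 63543 cytosines). Tiles were tested with edgeR 4.0.16 in R 4.3.3, with limma 3.58.1 as an alternative and Benjamini-Hochberg adjustment. With 12000 of 23094 simulated tiles raised by 30 points, 81.6% were recovered in the comparison of 60–65 with 40–45 µm, and with 200 raised, 20.0%. At 10 points these shares were 20.98% and 0%. Named genes were chosen by rank: among members of at least 10 kb with 50 calls in the body and a measured run, the 8 highest over the 20 kb, the 8 largest falls from a body of at least 50% and the 8 with the most RNA, then members of an oocyte list and the 5 smallest tile p-values. The printed stretch is the one nearest the end where several held as many cytosines. Python 3.11.15, numpy 2.4.6, pandas 2.3.3 and matplotlib 3.10.9 were used.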

Additional observations from a re-analysis of the deposited data

Results flagged for a closer look

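Both results below were singled out because the change with oocyte size differed between 2 kinds of sequence by a test of the difference itself. From 40–45 to 60–65 µm, the RRBS difference between the 0–5 kb past expressed and past silent genes grew by 6.03 points, with all 12 library pairs in order of size (exact permutation test, p = 0.0111, the smallest that 6 libraries allow). The difference between the last 5 kb of the body and the 0–5 kb past the end grew by 26.4 points, again with 12 of 12 pairs in order (exact permutation test, p = 0.0111). Leaving out 1 library at a time, these were 5.64 to 6.43 and 26.0 to 26.8 points, each with an exact permutation p of 0.0333, the smallest that 5 libraries allow. The sets hold different cytosines, and RRBS covers CpG-rich fragments, whose part in the differences was not tested.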

How the results depend on the processing

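None of the RRBS trends changed direction. The PBAT values and the counts of tiles were compared by size alone, so a change of direction could not appear there. Of all the values recomputed, 107 kept their side of the threshold or their size and 29 lost the threshold or over 1.5 times their size. A further 7 passed it and 20 moved, and causes were not tested except where stated. For the PBAT library, the first kb (31.97%), 1 to 5 kb (19.94%) and 15 to 20 kb (15.47%) became 32.4%, 20.97% and 14.6% as means of gene values, 32.5%, 20.4% and 15.3% for genes with 10 kb free, and 31.6%, 19.5% and 14.7% with no GENCODE gene in the region. With a threshold of 5 RPKM the first bands were 30.9% and 19.3%. With cytosines of at least 5 calls the first kb was 32.7% and 15 to 20 kb 15.99%. An alternative chosen after seeing the data, genes of at least 10 kb whose GENCODE end matched, gave 19.3% at 1 to 5 kb. The share of runs of at least 5 kb (19.1%) was 24.2% with a threshold of 20%, 10.9% with 40% and 13.3% when 1 bin ended the run. The share taking in all 20 kb (2.41%) was 1.26% with 40%, 1.47% when 1 bin ended the run and 1.20% with at least 20 calls per bin. In RRBS, the rise at 15 to 20 kb passed with at least 10 calls per cytosine (2.58 points, exact adjusted p 0.0139). With all cytosines of at least 5 calls in any library, the rises in the body (35.4 points, exact adjusted p 0.0556), 0–5 kb (6.95 points, 0.0889) and 5–10 kb (3.52 points, 0.0889) missed the threshold, as did pooled calls at 5–10 kb (3.45 points, exact adjusted p 0.0889). Leaving out 1 library, these rises were 34.7 to 35.7 points in the body, 6.79 to 7.29 at 0–5 kb, 2.61 to 3.05 at 5–10 kb, 2.40 to 3.05 at 10–15 kb and 2.36 to 2.59 at 15–20 kb. Member tiles called numbered 79 to 164 from 40–45 to 60–65 µm, 35 to 112 from 40–45 to 50–55 µm and 0 to 27 from 50–55 to 60–65 µm, and all tiles 9756 to 14779, 4652 to 10814 and 0 to 2999. With no limits on mean methylation, 101 of 1369 member tiles and 10721 of all 75233 were called from 40–45 to 60–65 µm, and 0 member tiles and 0 of all from 40–45 to 50–55 µm. With the replicate letter as a replicate block, which the letters do not support as a pairing, 147, 67 and 0 member tiles and 13926, 8175 and 0 of all tiles were called in the 3 comparisons, and the exact adjusted p of the first 3 bands was 0.0463. Depth limits single genes: the median cytosine had 2 PBAT calls, and 454 members had no measured run.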
